A study of Mus musculus with 10 samples.

Results

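The small heat shock proteins, a family of chaperones, were measured in islets, the clusters of endocrine cells in the pancreas. The 7 genes are Hspb1, Hspb2, Hspb3, Hspb6, Hspb7, Hspb8 and Cryab, of 19938 genes with a probe set annotated to 1 gene symbol, and each was measured by the brightest such probe set. The family was chosen by the log2 values of Hspb6, a gene of chromosome 7 that was lower in NZO islets, so the strain difference of Hspb6 is described and not tested. The other 6 entered by family name, and their differences are tested. Islets came from male NZO/Hl mice, a diabetes-prone strain labelled NZO, and from male C3HeB/FeJ mice, labelled C3H, all aged 6 weeks and with 5 arrays per strain. All mice of both strains had eaten a high-fat diet (45 kcal% fat) since weaning at day 21. The islets of both were released by perfusing the duct with collagenase and rested overnight in medium with 10 mM glucose. The study searched the interval from 30 to 46 Mb of chromosome 7, in which Hspb6 lies, for genes that differ between the strains.

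Small heat shock proteins share a conserved alpha-crystallin domain, assemble into large oligomers and hold unfolding proteins in a soluble state without using ATP. Chaperones that do use ATP, such as those of the Hsp70 class, can then refold the bound proteins, or co-chaperones pass them on to degradation. Several members, among them Hspb1 and Cryab, are induced by heat shock factors after heat and oxidants, and others, such as Hspb2, Hspb3 and Hspb7, are known mainly from heart and skeletal muscle.

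The upstream sequences of Hspb6, Hspb8 and Hspb1 are shown because heat shock factors bind inverted repeats of GAA, and these 3 genes held the same inverted repeat. RefSeq start sites on GRCm38.p6 gave a promoter for 5 of the 7 genes, and Hspb6 had 2 start sites. Each sequence runs from 250 bases before the start site through the first 30 bases of the transcript, and capitals mark GAANNTTC or TTCNNGAA, searched on both strands. Both motifs are their own reverse complement. A match is one of letters only, and binding by heat shock factors was not tested. The downstream start site of Hspb6 is shown (chr7:30553051-30553330, plus strand), with that of Hspb8 (chr5:116422835-116423114, minus strand) and that of Hspb1 (chr5:135887669-135887948, plus strand).
Hspb6: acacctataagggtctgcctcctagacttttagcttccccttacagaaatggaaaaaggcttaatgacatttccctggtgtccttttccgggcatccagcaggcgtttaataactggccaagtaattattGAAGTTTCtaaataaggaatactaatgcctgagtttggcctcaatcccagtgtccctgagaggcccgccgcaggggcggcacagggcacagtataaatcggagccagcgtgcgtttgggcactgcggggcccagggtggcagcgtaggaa
Hspb8: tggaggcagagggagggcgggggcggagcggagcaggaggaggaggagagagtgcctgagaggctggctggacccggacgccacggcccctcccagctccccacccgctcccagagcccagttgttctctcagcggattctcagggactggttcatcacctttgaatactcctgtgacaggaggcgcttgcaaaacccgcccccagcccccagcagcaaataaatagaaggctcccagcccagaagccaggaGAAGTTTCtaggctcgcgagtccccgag
Hspb1: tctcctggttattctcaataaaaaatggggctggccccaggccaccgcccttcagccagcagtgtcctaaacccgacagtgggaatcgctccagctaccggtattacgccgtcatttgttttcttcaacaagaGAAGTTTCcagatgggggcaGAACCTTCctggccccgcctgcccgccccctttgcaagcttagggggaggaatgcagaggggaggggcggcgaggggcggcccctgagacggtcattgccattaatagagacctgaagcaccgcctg
In windows of 300 bases, 250 before and 50 after the start site, 4 of the 6 promoters of these genes held 1 of the 2 motifs. Among all 32851 promoters the share was 15.1%. Counted by gene, a motif stood in 4 of the 5 genes, but no share by gene was computed over all genes to set beside it. The letters GAAGTTTC, singled out after the sequences were seen, stood in 1 promoter each of Hspb1, Hspb6 and Hspb8, against 1.21% of all promoters. They began 120 bases before the start site in Hspb6, 117 bases before it in Hspb1 and at base 3 of the transcript in Hspb8. Hspb3 held another match of GAANNTTC, 224 bases before its start site, and neither motif stood in that of Hspb7 or in that of the upstream start site of Hspb6. The CArG box, the site of serum response factor, stood in 1.63% of promoters and was not found in the 6 windows.

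Hspb6 and Hspb8 were lower in NZO islets, Cryab was lower by less, Hspb1 lay above its C3H mean with overlapping values, and Hspb2, Hspb3 and Hspb7 lay close together in the 2 strains. Among the 6 genes tested, 2 fell and none rose at a limma p adjusted over all genes below 0.05, the threshold used throughout, where 10.1% of all genes passed. Lower values in NZO were called for 4.61% of all genes and higher ones for 5.47%. The 2 genes are few, and no share is read from them. Strain values were fully separated in 2 of these 6 genes, where they were in 9.14% of all genes, and also in Hspb6, for which the family was chosen. The median difference was -0.07 over the 6 and -0.02 over all genes. All values are log2 values, on which 1 unit is a doubling, and differences are NZO minus C3H.

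**Figure D1:**
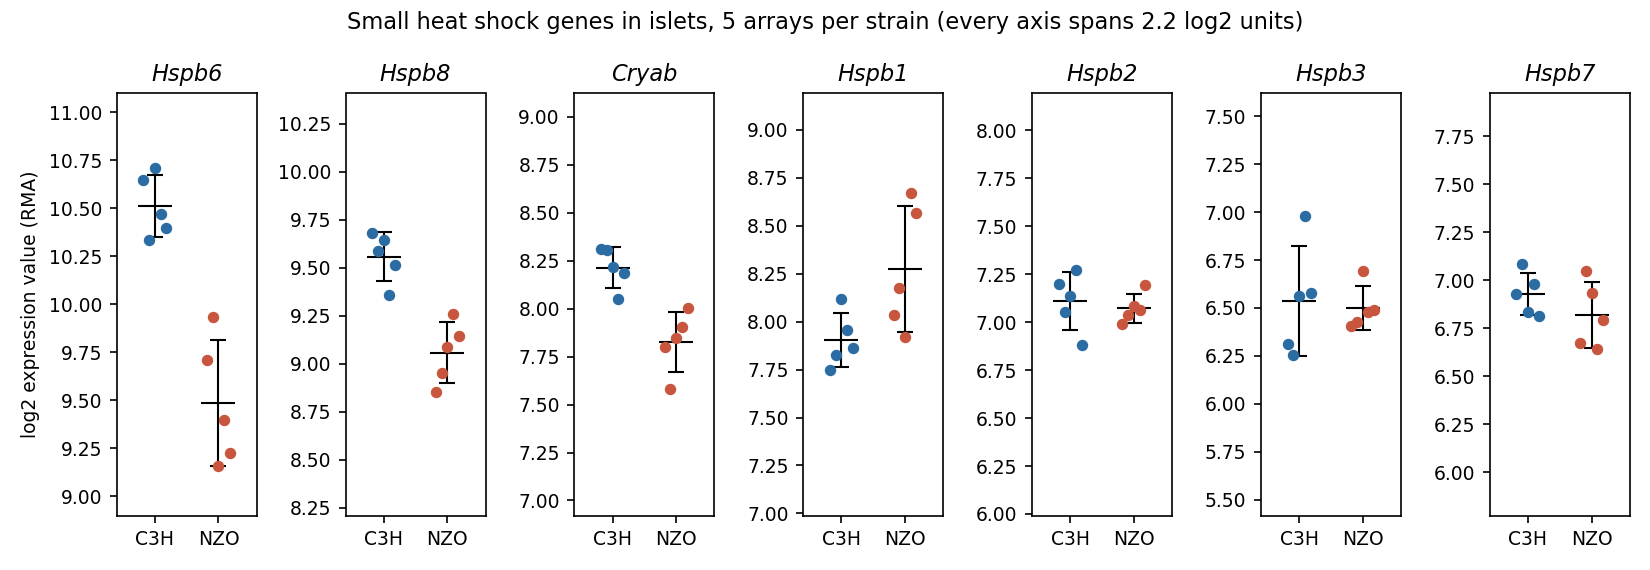
Log2 expression value of each small heat shock gene (vertical axis, RMA) on the 5 C3H arrays (blue) and the 5 NZO arrays (red), with the mean and SD as black bars. The strains do not overlap for Hspb6, Hspb8 and Cryab, and they overlap for the other 4 genes.

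Hspb6 encodes a chaperone, also called Hsp20 in older work, that protein kinase A phosphorylates in smooth and cardiac muscle. Its values in C3H were 10.65, 10.34, 10.71, 10.47 and 10.40, and in NZO 9.71, 9.93, 9.16, 9.40 and 9.23. Every NZO array lay below every C3H array, and the highest NZO value, on replicate 2, was still under the lowest C3H value. The C3H mean was 10.51 ± 0.16 and the NZO mean 9.48 ± 0.33 (SD, n = 5 each), a difference of -1.03 (SE 0.14), or 2.04-fold. The NZO arrays were more spread than the C3H arrays. A difference as low or lower was found for 63 genes, or 0.316% of all genes, Hspb6 included. This is the value by which the family was chosen, so it describes these arrays and carries no test.

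Hspb8 encodes a chaperone that works with the co-chaperone Bag3 to deliver misfolded proteins to autophagy. Its values in C3H were 9.68, 9.59, 9.65, 9.36 and 9.51, and in NZO 8.85, 8.95, 9.08, 9.26 and 9.15. The strains did not overlap, although NZO replicate 4 came close to C3H replicate 4. Hspb8 fell from 9.56 ± 0.13 to 9.06 ± 0.16 (SD, n = 5 each), a difference of -0.50 (SE 0.09, 1.41-fold, limma adjusted p = 0.00261). An exact two-sided permutation test over the arrays, unadjusted, gave p = 0.00794, the smallest that 5 against 5 allows. Strains that do not overlap always give this p, so it adds nothing to their separation. With the mean of the acinar markers as a covariate the difference was larger, at -0.87 (SE 0.17, limma adjusted p = 0.0197).

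Cryab encodes alpha-B crystallin, a structural protein of the lens that also acts as a chaperone in muscle and other tissues. Its values in C3H were 8.31, 8.31, 8.22, 8.05 and 8.19, and in NZO 7.80, 7.58, 7.85, 7.90 and 8.00. The strains did not overlap, and the gap between the lowest C3H and the highest NZO value was narrow. Cryab fell from 8.21 ± 0.11 to 7.83 ± 0.16 (SD, n = 5 each), a difference of -0.39 (SE 0.09, 1.31-fold, limma adjusted p = 0.0114). The exact two-sided permutation test again gave the smallest p it allows, 0.00794, as it must where the strains do not overlap. With the acinar score as a covariate Cryab no longer passed, although its difference was larger (-0.70, SE 0.17, limma adjusted p = 0.0764).

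Hspb1, known as Hsp25 in the mouse, protects actin filaments and is the main small heat shock substrate of the kinase encoded by Mapkapk2. Its values in C3H were 7.75, 7.83, 8.12, 7.96 and 7.86, and in NZO 8.04, 8.18, 7.92, 8.67 and 8.57. NZO replicates 1 to 3 lay within or just above the C3H range, and NZO replicates 4 and 5 lay well above it. The C3H mean was 7.90 ± 0.14 and the NZO mean 8.27 ± 0.33 (SD, n = 5 each), a difference of 0.37 (SE 0.14, 95% interval 0.08 to 0.66) that did not pass (limma adjusted p = 0.108). A second probe set named Hspb1 gave 7.68 ± 0.14 and 8.10 ± 0.34 and ordered the arrays alike at both ends. Its difference was 0.42 (limma adjusted p = 0.0723). The genome positions of these probe sets were not given. By number, the brighter set falls between those of Ucn3 and Hspb3, genes of chromosome 13. The second falls close to the set of Srrm3, a neighbour of Hspb1 on chromosome 5. Whether both measure the same copy is not known. Without NZO replicate 3 Hspb1 passed (0.46, limma adjusted p = 0.0479), and without NZO replicates 4 and 5 its difference was 0.14 (SE 0.10).

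The genes known mainly from heart and skeletal muscle differed little. Hspb2, whose protein binds the myotonic dystrophy kinase, lay between 6.88 and 7.27 in C3H and between 6.99 and 7.19 in NZO, a difference of -0.04 (95% interval -0.21 to 0.14, limma adjusted p = 0.879). Hspb3, whose protein forms complexes with that of Hspb2, lay between 6.25 and 6.98 in C3H and between 6.41 and 6.69 in NZO, a difference of -0.04 (95% interval -0.30 to 0.22, limma adjusted p = 0.920). Hspb7, which is needed for ordered actin filaments in the heart, lay between 6.82 and 7.08 in C3H and between 6.64 and 7.05 in NZO, a difference of -0.11 (95% interval -0.31 to 0.09, limma adjusted p = 0.577). None of the 3 passed, their strains overlapped, and the intervals leave room for differences of up to 0.31 in size. The array values carry no detection call, and these 3 probe sets lay under the median brightness of all genes (7.50), so they are not shown to be above background. C3H replicate 4 gave the highest Hspb2 and Hspb3 values of that strain, and without it both differences were above 0 (0.004 and 0.07).

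Cryaa, Hspb9 and Odf1 complete the family on the array, and none of the 3 passed. Cryaa, the second alpha-crystallin of the lens, differed by -0.08 (SE 0.10), the testis gene Hspb9 by -0.13 (SE 0.10), and Odf1, which encodes a protein of the sperm tail, by -0.07 (SE 0.10).

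**Figure D2:**
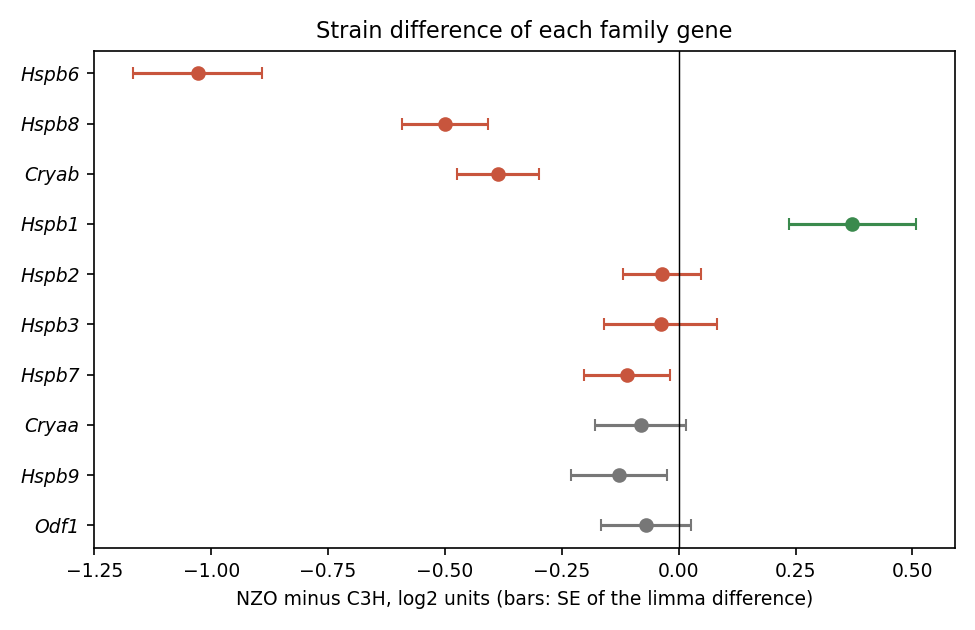
Strain difference of each gene of the family (horizontal axis, NZO minus C3H in log2 units) with the SE of the limma difference as bars, red below 0 and green above 0 for the 7 genes and grey for Cryaa, Hspb9 and Odf1. Hspb6 (-1.03), Hspb8 (-0.50) and Cryab (-0.39) lie farthest below 0 and Hspb1 (0.37) above it, while the other 6 lie between -0.13 and -0.04.

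The genes also differed in how they varied among arrays of one strain. Over the 10 arrays, deviations from the strain means moved together in Hspb8 and Cryab (Pearson r = 0.73) and opposite ways in Hspb6 and Cryab (r = -0.60). For Hspb6 and Hspb8 r was -0.33. These are descriptions over 5 arrays a strain, too few for a test within a strain, and they include variation that all genes of an array share. Hspb6 was highest among NZO arrays on replicates 2 and 1, where Hspb8 was lowest.

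Among 9965 genes above the median brightness, the deviations most like those of Hspb6 belonged to Ctu2, a tRNA thiolation enzyme (r = 0.97 over 10 arrays), and Tox3, a chromatin protein (r = 0.96). Dlg3, a synaptic scaffold (r = 0.95), Mmab, an enzyme of vitamin B12 metabolism (r = 0.95), and Fam102a (r = 0.94) came next. Of these 5, only Mmab passed the strain comparison (-0.26, limma adjusted p = 0.0274), and Tox3 differed by 0.09. Those most like Hspb8 were Rcn3, a calcium-binding protein of the endoplasmic reticulum, Eif4e2 and Mbd1 (r = 0.91 each), and those most like Cryab were Golm1, Slc40a1 and Ldlrad3 (r = 0.95, 0.94 and 0.94). For Hspb1 they were Rap2b, the glycine transporter gene Slc6a9 and the serine protease gene Prss8 (r = 0.92, 0.89 and 0.89). All these are the highest r of 9965 genes over 10 arrays, where high values can arise by chance, and no r was tested. The deviations exclude the strain means, so likeness says nothing of the strain difference: Rcn3 was lower in NZO (-0.85, limma adjusted p = 0.000596) and Golm1 higher (0.54, limma adjusted p = 0.0121).

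The arrays carried different amounts of exocrine transcripts, and these moved with strain. Of 26 measured acinar markers, 23 (88.5%) were higher in NZO, against 5.47% of all genes. Their mean was 11.5 and 11.4 on NZO replicates 4 and 5, the arrays on which Hspb1 was highest. It ranged from 9.65 to 10.2 over NZO replicates 1 to 3 and from 7.97 to 8.80 over the C3H arrays. Of 10 duct markers, 4 (40.0%) were higher and none lower. Their mean on the same NZO arrays was 10.1 and 10.2, and it ranged from 9.35 to 9.70 over NZO replicates 1 to 3. Over C3H it ranged from 9.04 to 9.25. Of 15 macrophage markers, 6 were higher and 1 lower, with means of 8.18 and 8.34 on these arrays against 7.34 to 7.74 on the others. The part of these cells in the differences of the family was not tested. In whole islets fewer cells of a type and less RNA per cell cannot be told apart. In the fit that held the acinar score beside strain 1.04% of all genes passed, and Hspb6 differed by -0.68 (SE 0.28) and Hspb1 by -0.26 (SE 0.22), and of the 6 genes tested Hspb8 alone passed. Without NZO replicates 4 and 5, where 5.54% of all genes passed, Hspb6 differed by -0.91 (SE 0.15), Hspb8 by -0.60 (limma adjusted p = 0.00271) and Cryab by -0.47 (limma adjusted p = 0.0115).

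Islet endocrine genes were bright on all arrays, as the label of the tissue says, and some were lower in NZO. The mean of 9 endocrine markers was 12.72 to 12.86 in C3H and 12.10 to 12.67 in NZO. Of them, 5 (55.6%) fell, against 4.61% of all genes. These were Sst, Ppy, Pcsk1, Slc2a2 and Ucn3, while Ins2, Iapp, Gcg and Chga did not pass. Within NZO the mean of the endocrine markers was highest on replicate 2, where Hspb6 was also highest, but lowest on replicate 4, where Hspb6 was not. The part of this in the Hspb6 difference was not tested.

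None of the measured markers of muscle, in which several of these chaperones are abundant, passed as lower in NZO. The part of muscle cells in the differences of the family was not tested. Of 14 smooth muscle and pericyte markers, 1, the pericyte gene Rgs5, rose (0.83), none fell, and the median difference was 0.05. Their mean was 8.04 and 8.16 on NZO replicates 4 and 5, where it ranged from 7.54 to 7.82 over NZO replicates 1 to 3 and from 7.68 to 7.77 over C3H. With that mean as a covariate, where 7.51% of all genes passed, Hspb6 differed by -0.86 (SE 0.12), Hspb8 by -0.56 (SE 0.10, limma adjusted p = 0.00189) and Cryab by -0.48 (SE 0.08, limma adjusted p = 0.0019). None of 14 striated muscle markers passed (median difference 0.01), and their strain means lay between 5.48 and 7.89. Apart from Acta1, all of them lay under the median brightness of all genes (7.50). So did Tagln, Myh11, Cnn1, Des, Lmod1, Cspg4, Notch3 and Myocd of the smooth muscle and pericyte list. These dim markers are not shown to be above background, so they say little about muscle cells in either strain. In the other lists, 2 of 14 endothelial markers (14.3%) and 1 of 12 stellate cell and fibroblast markers (8.33%) rose, 1 of 7 Schwann cell markers (14.3%) fell, and none of 10 lymphocyte markers passed, against 10.1% of all genes.

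The rest of the chaperone system changed in few genes. Of 81 measured genes of chaperones, partners and regulators outside the 7, 2 rose and 1 fell, or 3.70%, against 10.1% of all genes. The median difference of the 81 genes was -0.07, and 69.1% of them lay below 0, against 55.2% of all genes. That count rested on single arrays: it was 7 without C3H replicate 4 or without NZO replicate 2, and 1 without C3H replicate 3 or 5 or without NZO replicate 4 or 5.

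Mapkapk2, the kinase that phosphorylates Hspb1, was the clearest change in the list of partners and co-chaperones, where 1 of 19 genes rose and none fell. Its values were 9.84, 9.87, 9.94, 9.72 and 9.92 in C3H and 10.53, 10.41, 10.51, 10.37 and 10.51 in NZO, without overlap. Mapkapk2 rose by 0.61 (SE 0.07, 1.52-fold, limma adjusted p = 7.5e-05), with tight values in both strains. With the acinar score as a covariate its difference was 0.65, but it no longer passed (limma adjusted p = 0.0841). Mapk14, the stress kinase upstream of it, differed by 0.15 (SE 0.07, limma adjusted p = 0.239), and Mapkapk3, its close relative, by 0.04. Bag3, the partner of Hspb8, differed by 0.22 (SE 0.12, limma adjusted p = 0.309) and so lay above its C3H mean while Hspb8 fell. Mapk14, Mapkapk3 and Bag3 are named for these links, after their values were seen.

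Chaperones of the Hsp70 and Hsp110 class numbered 12, of which 1 rose and none fell. Hspa13, a microsomal member, rose from 11.69 ± 0.12 to 11.96 ± 0.10 (SD, n = 5 each; 0.27, SE 0.08, limma adjusted p = 0.0464), but it passed in only 8 of 21 alternatives. Hspa1a, the classic heat-inducible member, is named after its value was seen. It lay between 8.501 and 9.73 in C3H and between 7.83 and 9.001 in NZO, a wide spread in both strains with overlap, and its difference of -0.79 (SE 0.26) did not pass (limma adjusted p = 0.0725). Some other genes known to be induced by heat lay close to 0: Dnajb1 at -0.09 (SE 0.08), Hsph1 at -0.08 (SE 0.08) and Hsp90aa1 at -0.07 (SE 0.07). They too are named after their values were seen and do not stand for all such genes. Hspa8, the constitutive member, differed by 0.005.

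In the DnaJ list, whose proteins pass substrates to Hsp70, 1 of 24 genes fell and none rose. This was Dnajc27 (-0.33, SE 0.09, limma adjusted p = 0.0322), which passed in 12 of 21 alternatives and was -0.24 without NZO replicates 4 and 5 (limma adjusted p = 0.280). With the acinar score as a covariate Dnajc27 differed by -0.11 (SE 0.185, limma adjusted p = 0.9995). None passed among 8 genes of the Hsp90 class and its cofactors, where Ptges3 had the smallest p (-0.14, limma adjusted p = 0.249). None passed among 10 chaperonin genes either, where Cct8 came closest (-0.22, SE 0.07, limma adjusted p = 0.0841). Among 5 measured heat shock factors and their regulators none passed, and Hsbp1, a negative regulator of Hsf1, had the smallest p (-0.18, SE 0.08, limma adjusted p = 0.205).

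**Figure D3:**
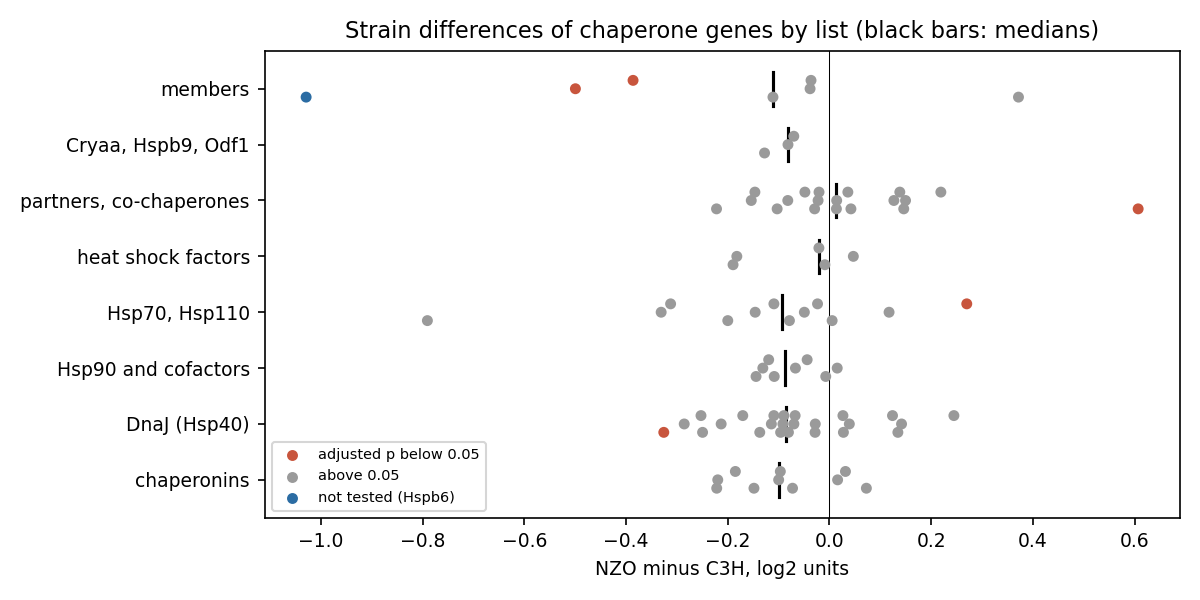
Strain difference (horizontal axis, NZO minus C3H in log2 units) of each measured gene of the family (top row) and of 7 chaperone lists, with red points for an adjusted p below 0.05, grey points for others, blue for Hspb6, which was not tested, and black bars at list medians. The red points outside the family are Mapkapk2 (0.61), Hspa13 (0.27) and Dnajc27 (-0.33), and the medians of the 7 lists lie between -0.10 and 0.01.

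Next to Hspb6 on chromosome 7, most genes did not follow it. Of the 5 measured genes on each side, Igflr1, which encodes a receptor of insulin growth factor-like proteins, was the only one that passed. Its values were 6.87, 6.89, 6.92, 7.16 and 7.09 in C3H and 6.58, 6.61, 6.62, 6.62 and 6.64 in NZO, which did not overlap, and it fell by 0.37 on the log2 scale (SE 0.08, limma adjusted p = 0.00522). With the acinar score as a covariate Igflr1 differed by -0.35 (SE 0.17) and no longer passed (limma adjusted p = 0.725). Its values lay under the median brightness of all genes (7.50), so they are not shown to be above background. The direct neighbours were Proser3 (-0.24, SE 0.10, limma adjusted p = 0.153) and Lin37, a subunit of a cell cycle repressor complex (0.07, SE 0.07). Psenen, a subunit of gamma-secretase, differed by -0.04, the splicing factor gene U2af1l4 by -0.07 and the histone methyltransferase gene Kmt2b by -0.07. On the other side lay Arhgap33 (-0.10), its antisense gene Arhgap33os (0.01), Prodh2 (0.05) and Nphs1, which encodes nephrin of the kidney filter (-0.16). Whether the probes of Arhgap33 and of its antisense gene tell them apart was not tested.

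Over the 20 measured genes on each side, 7 of 40 fell (17.5%) and none rose, against 4.61% of all genes called lower. Hspb6 was the lowest of the stretch, and the next lowest gene differed by -0.96. The stretch was chosen for its place around Hspb6, so this share is a description.

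**Figure D4:**
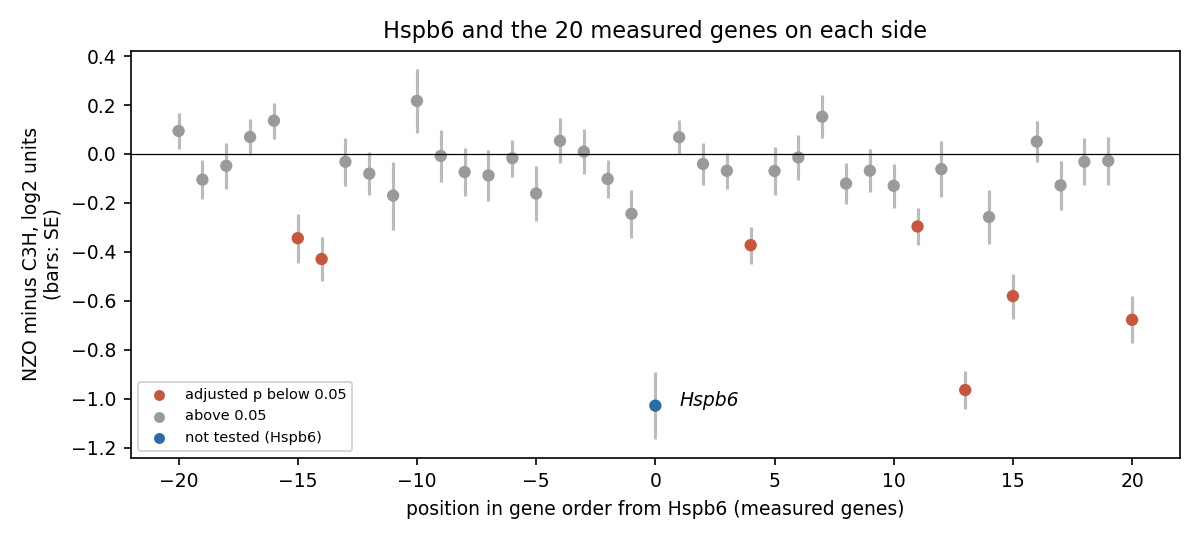
Strain difference (vertical axis, NZO minus C3H in log2 units, bars are SE) of Hspb6 (blue) and of the 20 measured genes on each side, by position in gene order on GRCm38.p6, with red points for an adjusted p below 0.05. Hspb6 lies at -1.03, 7 of the 40 neighbours are red and below 0, and the nearest red point is Igflr1, the fourth gene on the right.

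The nearest measured genes of the other members did not pass, apart from Cryab itself, which is the neighbour of Hspb2. Cryab and Hspb2 lie side by side on chromosome 9, and their differences were -0.39 and -0.04. The other neighbour of Cryab, 2310030G06Rik, differed by 0.01 and that of Hspb2, 1110032A03Rik, by -0.002. On chromosome 5, Hspb8 lies between Ccdc60 (-0.07) and Srrm4, a neuronal splicing regulator (-0.30, SE 0.10, limma adjusted p = 0.0700), and Hspb1 between Srrm3 (-0.18, SE 0.08) and Ywhag (0.04). Hspb3 lies between Snx18 (0.03) and Arl15 (-0.11), and Hspb7 between Fam131c (0.04) and Srarp (-0.01).

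**Figure D5:**
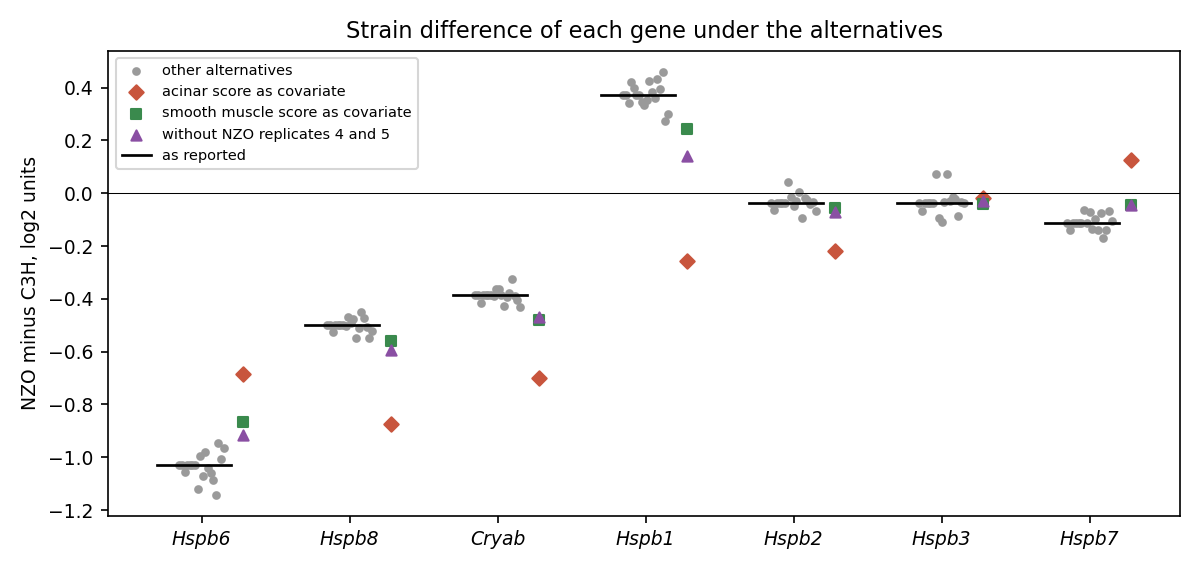
Strain difference of each of the 7 genes (vertical axis, NZO minus C3H in log2 units) as reported (black line), with the acinar score (red diamonds) or the smooth muscle score (green squares) as a covariate, without NZO replicates 4 and 5 (purple triangles) and under the other alternatives (grey points). Hspb6, Hspb8 and Cryab lie below 0 under all alternatives run, between -1.14 and -0.32, while Hspb1 moves from 0.37 to -0.26 with the acinar score.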

How the data were processed

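Each deposited value is the log2 expression of a probe set on an array, computed by the authors with RMA in Expression Console of Affymetrix, per the submitters' processing notes and the labels. An array took 150 ng of RNA, per the labels' protocols. RMA removes background, gives all arrays the same distribution and combines the probes of a set, so there is no detection call, and differences are compressed where a set is dim or very bright. Software version, probe library and genome build were not given in the sources used here, and the number of arrays limits the precision.

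Array medians over 35556 probe sets lay between 6.93 and 7.05. Of the probe sets, 21789 carried 1 gene symbol, 1621 several and 12146 none. The brightest single-symbol probe set by mean over the 10 arrays was kept for each of 19938 genes, with no filter on dim genes. Of the single-symbol probe sets, 21698 matched a gene table of GRCm38.p6 by Entrez ID, which gave chromosome and gene order.

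Differences, with SE and 95% intervals, came from limma 3.58.1 (lmFit, eBayes; R 4.3.3), as two-sided tests whose p-values were adjusted over all genes by Benjamini-Hochberg. The fit was checked on simulated data that had the measured mean and spread of each gene and 200 of 19938 genes changed. There 72% of changes of 0.5 log2 units and 98% of changes of 1 were recovered, with 5 false calls. The simulated noise was independent between genes, without the variation that genes of a real array share. These rates therefore need not hold for the real comparison.

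Replicate numbers follow deposition and pair nothing. Titles end in a pair of separate numbers, except on NZO replicate 4, with 1 number, and NZO replicate 5, with numbers joined by a hyphen. What the numbers stand for, and whether an array pools animals, is not stated, so p-values measure the spread between samples. No batch is labelled.

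The members, gene lists, naming rule and alternatives were chosen with earlier results of these data known. The rule names the family, up to 4 called genes of each chaperone list (or the 1 with the smallest p), the measured neighbours (5 on each side of Hspb6, 1 of the others) and the genes with the most alike deviations from strain means, 5 for Hspb6 and 3 for other members above median brightness. Alternatives were brightness filters, centring, other probe sets, other variance models, covariates, left-out arrays and an exact permutation test. Motifs were searched in RefSeq promoter sequences of GRCm38.p6.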

Additional observations from a re-analysis of the deposited data

Results flagged for a closer look

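Among 14 sets of 5 arrays (7 genes in 2 strains), 1 held an array far from the others, where chance gives about 1 in 20. Hspb3 was 6.69 on NZO replicate 3, while the other NZO arrays lay between 6.41 and 6.49. The strain difference of Hspb3 did not pass with that array (limma adjusted p = 0.920) or without it (0.813).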

How the results depend on the processing

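Hspb8 kept its direction and passed under all 22 alternatives, from -0.87 to -0.45, among them the exact permutation test with its unadjusted p. Cryab did so under 21 of 22, from -0.70 to -0.32, and with the acinar score as a covariate (-0.70) it no longer passed. These counts are not of independent checks. Hspb8 and Cryab have 1 probe set each, so other probe set choices and brightness filters left their differences as they were. Their strains did not overlap, so leaving out arrays could not turn the direction, and the permutation p was fixed by that separation. Hspb6 lay between -1.14 and -0.68, the latter with that covariate, and between -1.14 and -0.95 with 1 array left out. Hspb1 turned to -0.26 and Hspb7 to 0.13 with the acinar score. Array weights turned Hspb2 to 0.042 and Hspb3 to 0.074. With 1 array left out, Hspb2 lay between -0.093 and 0.0043 and Hspb3 between -0.11 and 0.073, above 0 without C3H replicate 4. Hspb1 lay between 0.27 and 0.46 with 1 array left out and passed without NZO replicate 3. Its exact permutation test gave p = 0.0476 (difference 0.37), which is not adjusted for the number of genes tested. Hspb2, Hspb3 and Hspb7 have no value above median brightness, since that filter removed them.

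The number of genes called was 2010, but 4125 with array weights (1815 higher, 2310 lower), 207 with the acinar score and 1105 without NZO replicates 4 and 5. With 1 array left out it stayed within 1.5 times of 2010. Of the 81 chaperone genes 3 were called, but 5 above median brightness, 1 over all probe sets, 12 with array weights (2 higher, 10 lower), 0 with the acinar score, 1 with the smooth muscle score and 1 without NZO replicates 4 and 5. With 1 array left out the number was 1 to 7, where 1441 to 2701 of all 19938 genes were called. Above median brightness 1714 of 9969 genes were called, over all probe sets 2017 of 35556, and with the smooth muscle score 1498 of 19938 genes. Array weights gave C3H replicate 4 the lowest weight (0.192). The causes of these changes were not tested. The acinar score differs between the strains, and with it the SE of Hspb8 rose from 0.09 to 0.17.

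No paired analysis was possible because the labels give no replicate numbers shared between the strains. Whether sequence differences between the strains lie under the probes was not tested, and values near the array medians are not shown to be above background.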
